A study of Mus musculus with 68 samples.

Results

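The genes that make up the sending and receiving machinery of the Notch pathway were followed through 68 single cells of the developing mouse cerebral cortex. They are the receptors Notch1, Notch2 and Notch3, the ligands Dll1, Dll3, Jag1 and Dner, and the glycosyltransferases Lfng, Mfng and Rfng. All probe sets that the platform annotation maps to these genes were taken, 18 probe sets for 10 genes, of 45101 probe sets and 18194 genes in all. Each array held the amplified cDNA of 1 cell of a CD1 mouse. The cells were 30 picked from the dorso-lateral cerebral wall at E11, 28 from the VZ and SVZ at E16, 3 APs of E12, 3 APs of neurospheres and 4 NICD/p18 co-expressing APs. The neurospheres were grown from E11 cells for 3 days in vitro in medium with EGF and FGF2. Culture, growth factors and time since E11 cannot be told apart in the neurosphere group. The NICD/p18 APs were picked as EGFP-positive cells at E14, 3 days after in utero electroporation with the intracellular domain of mouse Notch1 driven by pCAG, p18 (Cdkn2c, a Cdk inhibitor) driven by pEF, and EGFP. Electroporation reaches only some cells, and arrays of cells electroporated with EGFP alone were not analysed here, so electroporation, NICD, p18 and age cannot be told apart in that group. Cells had been chosen for arrays by qPCR of markers, so shares are of chosen cells, not of the tissue. E11 and E16 cells were chosen as progenitors. E12 APs were chosen with Ki67, Ttyh1, Sox2 and Pax6 present and Tbr2 absent. NICD/p18 APs were identified by Egfp and Ttyh1 present and Tbr2 absent, and the study reports that Ki67 was then found absent in such cells. No group carries a deletion or a Cre driver.

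Notch receptors are cell-surface proteins that are cut when a ligand on a neighbouring cell binds and pulls on them. The freed intracellular domain enters the nucleus, joins Rbpj and switches on repressors of the Hes and Hey families, which keep a progenitor from differentiating. In the cortex the source of this signal shifts with time. In the early, proliferative phase Dll1 is made mainly by the APs at the ventricular surface themselves. In the neurogenic phase APs receive the signal from their differentiating neighbours, the intermediate progenitors (IPs) and newborn neurons. Dll1 and Jag1 are ligands that activate the receptor from a neighbouring cell. Dll3 is a divergent family member that is found mostly inside the cell and is not known to activate Notch in trans, and Dner is an atypical EGF-repeat protein of neural cells. Fringe enzymes extend sugars on the receptor and thereby change which ligand it answers.

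A signal was called over 20 copies when it reached 842, or 9.72 on the log2 scale, the median of a spike RNA added at 20 copies per cell. At least 1 cell reached it for 15 of the 18 probe sets and for 9 of the 10 genes. The 3 probe sets that never did were both of Lfng and 1421105_at of Jag1. A gene with several probe sets is represented by the brightest (1418634_at for Notch1, 1455556_at for Notch2, 1421965_s_at for Notch3, 1421105_at for Jag1, 1423671_at for Dner, 1420643_at for Lfng and 1460704_at for Rfng). Dll1, Dll3 and Mfng have 1 probe set each. Values below are quantile normalized log2 signals, given as mean ± SD between cells, and they compare a gene between cells, not one gene with another.

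The labels give the stage of the E11 and E16 cells but not their type. Clustering on marker genes, none of them a Notch pathway gene, split the 29 E11 cells kept into 23 AP-like, 2 IP-like and 4 neuron-like cells. The 28 E16 cells split into 17 AP-like, 8 IP-like and 3 neuron-like cells. Of 11 AP markers, AP-like cells had 4 to 9 over 20 copies at E11 and 6 to 11 at E16. Of 11 IP markers, IP-like cells had 8 to 9 at E11 and 4 to 8 at E16, and E16 IP-like cells also kept 3 to 8 of the AP markers. Of 18 neuron markers, IP-like cells had 5 to 8 over 20 copies at E11 and 3 to 7 at E16, against 0 to 5 and 1 to 4 in AP-like cells. Neuron-like cells had 9 to 12 of 18 neuron markers at E11 and 7 to 12 at E16, and E11 neuron-like cells also had 4 to 8 of the IP markers. The labelled APs had 8 to 10 AP markers over 20 copies at E12, 8 to 10 in NICD/p18 APs and 4 to 10 in neurospheres. NICD/p18 APs also had 3 to 11 of the 18 neuron markers over 20 copies, against 2 to 6 in E12 APs and 2 to 4 in neurosphere APs. The E12 AP array with Notch2 at 4.82 went against its selection, with Eomes (Tbr2) at 11.75, while the other two had 1.27 and 2.52. It also had Nefl at 10.24, and another E12 cell had Neurod6 at 10.01 and Tbr1 at 9.97, both over 20 copies. No interneuron or choroid plexus marker reached 20 copies in any of these cells, and at most 1 marker of microglia, vessels or mesenchyme and 2 of blood did so in a cell. Because a class is defined on the same arrays, differences between classes describe them and are not tests, and since no embryo, litter or culture is named, each group counts as 1 sample with no p-value.

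Dll1, Dll3 and Mfng had higher means in E11 IP-like than in E11 AP-like cells, and the promoter windows of Dll1 and Dll3 are shown here. Each runs 5′ to 3′ on the gene's own strand from 250 bases before to 50 after the start, from RefSeq on GRCm38.p6, and capitals mark every CANNTG, the E-box to which proneural factors such as Neurog2 bind. RefSeq windows matched 9 of the 10 members, with 10 windows, and Mfng had none in the table. Dll1 has a window at chr17:15376883-15377182 and another at chr17:15375774-15376073, and Dll3 has its window at chr7:28301736-28302035, all on the minus strand.
Dll1 (15376883): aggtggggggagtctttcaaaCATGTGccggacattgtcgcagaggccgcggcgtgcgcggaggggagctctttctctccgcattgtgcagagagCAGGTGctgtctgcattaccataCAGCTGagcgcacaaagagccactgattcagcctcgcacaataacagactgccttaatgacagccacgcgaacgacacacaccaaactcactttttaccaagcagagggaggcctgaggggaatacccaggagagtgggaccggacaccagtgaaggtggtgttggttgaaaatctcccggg
Dll1 (15375774): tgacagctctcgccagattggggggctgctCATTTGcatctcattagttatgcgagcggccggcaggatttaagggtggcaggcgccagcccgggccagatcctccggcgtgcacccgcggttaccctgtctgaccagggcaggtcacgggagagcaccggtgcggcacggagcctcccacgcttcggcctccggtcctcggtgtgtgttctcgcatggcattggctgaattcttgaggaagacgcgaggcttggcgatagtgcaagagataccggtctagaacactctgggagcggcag
Dll3 (28301736): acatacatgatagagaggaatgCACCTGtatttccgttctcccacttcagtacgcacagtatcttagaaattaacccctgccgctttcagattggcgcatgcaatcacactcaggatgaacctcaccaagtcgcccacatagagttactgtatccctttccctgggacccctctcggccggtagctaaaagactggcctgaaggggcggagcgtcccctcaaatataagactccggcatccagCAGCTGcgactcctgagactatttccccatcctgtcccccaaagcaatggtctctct
The letters CANNTG read the same way on both strands, and they stand in 6 of the 10 member windows and in 72.3% of all 32851 promoter windows. The narrower CAGCTG, which is also a CANNTG, stands in 4 of the 10 windows (Jag1, Lfng, Dll3 and the first window of Dll1) and in 16.3% of all windows. CAGATG, searched on both strands and likewise a kind of CANNTG, is in none of the 10 and in 17.2% of all. TGGGAA, the core letters bound by Rbpj, searched on both strands, is in the Lfng window alone among the members and in 25.6% of all. These matches describe the letters and were not tied to binding in these cells.

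Among the receptors, each had its own distribution over the cell groups. Notch1 exceeded 20 copies in 13 of 23 E11 AP-like cells, 3 of 3 E12 APs, 11 of 17 E16 AP-like cells and 7 of 8 E16 IP-like cells. It did so in 0 of 4 E11 and 0 of 3 E16 neuron-like cells. In order of the mean, Notch1 was highest in E16 IP-like cells (11.59 ± 2.09), followed by neurosphere APs (11.08 ± 1.05), E12 APs (10.60 ± 0.94), E16 AP-like cells (10.35 ± 1.86), NICD/p18 APs (9.86 ± 0.72), E11 AP-like cells (8.89 ± 2.81) and E11 IP-like cells (8.56 ± 5.40). Neighbours in this order lay within their SDs. Last came the neuron-like cells of E16 (6.31 ± 2.80) and E11 (3.93 ± 0.77).

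**Figure D1:**
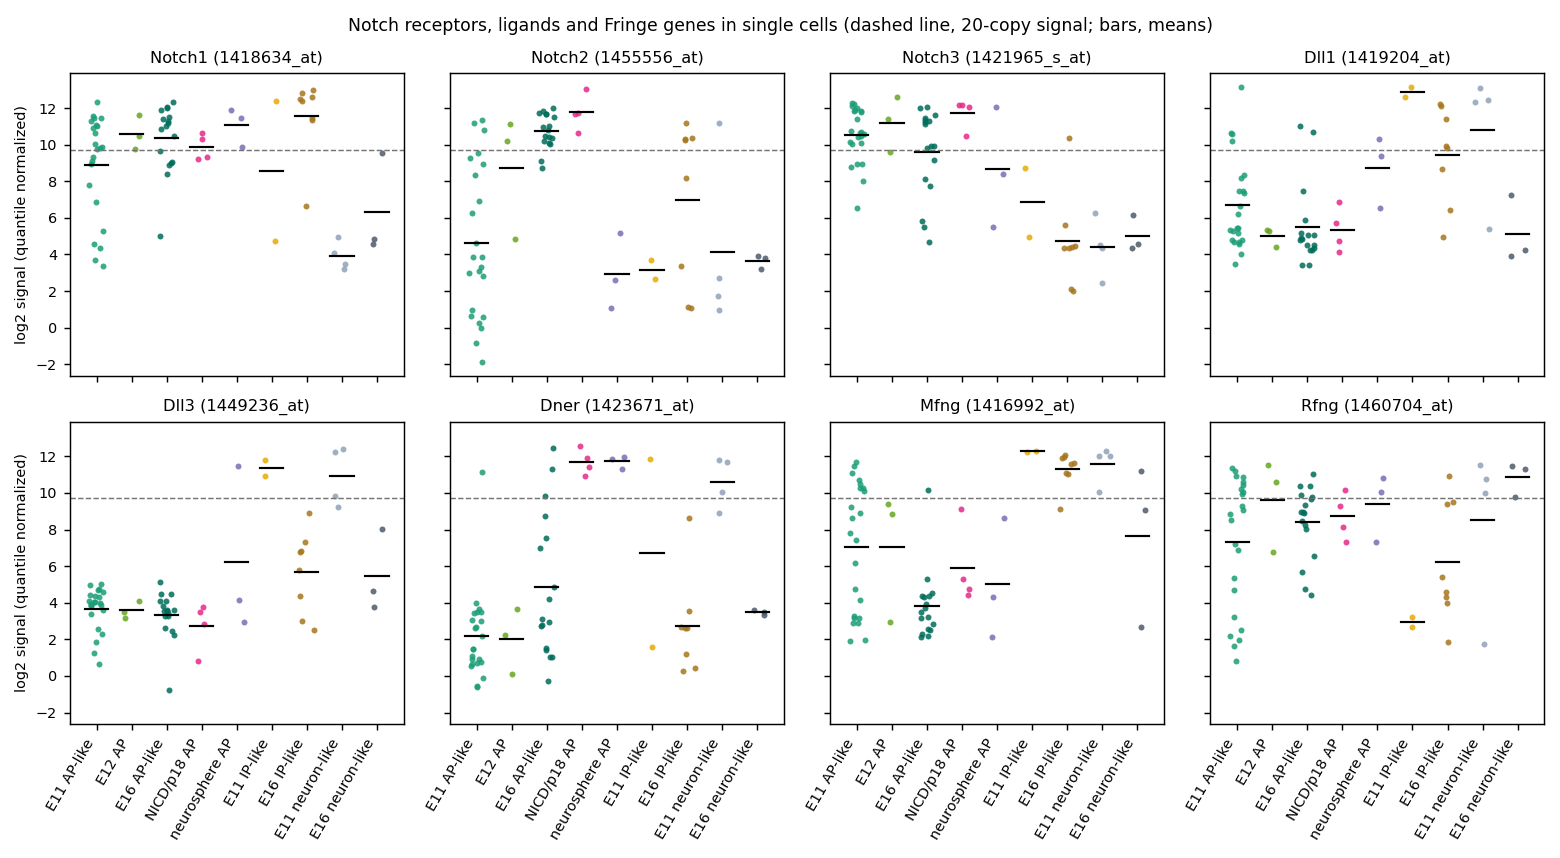
Quantile normalized log2 signal of 8 member genes (probe set in brackets) in each cell, by cell group. Points are cells, bars are group means and the dashed line is the 20-copy signal of 9.72. Dll1, Dll3 and Mfng have their highest means in E11 IP-like cells, Notch2 is spread from -1.88 to 11.33 in E11 AP-like cells, and Dner lies above 10 in all NICD/p18 and neurosphere APs.

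Notch2, a close relative of Notch1, separated the stages of APs. In E11 AP-like cells its signal ran from -1.88 through a median of 3.85 to 11.33, and 3 of 23 cells (exact 95% interval 2.78 to 33.6%) exceeded 20 copies. In E16 AP-like cells it ran from 8.73 through 10.79 to 12.01, and 15 of 17 cells (88.2%, 63.6 to 98.5%) exceeded it. Intervals here and below cover counting error only. The means were 4.65 ± 4.16 and 10.75 ± 0.96, a difference of 6.10, and the ranges of single cells overlapped. The 3 E12 APs had 4.82, 10.20 and 11.15, so 1 lay with most E11 cells and 2 with the E16 cells. A difference of at least 2 with the higher mean over 20 copies is here called a change in mean. Members are counted by gene, on the brightest probe set, while the shares given beside them are of single probe sets. The brightest probe sets of Jag1 and Lfng reached 20 copies in no cell, so these genes could not be called by that rule. Between E16 and E11 AP-like cells Notch2 was the only one of the 10 members called, and 0.864% of the 20721 probe sets over 20 copies in at least 1 cell were called higher, 1.17% lower and 2.04% either way. Notch1 differed by 1.46 (10.35 ± 1.86 against 8.89 ± 2.81) and Notch3 by -0.97 (9.58 ± 2.39 against 10.55 ± 1.50), and neither was called. The second Notch2 probe set, 1451889_at, had no cell over 20 copies among those kept, at 5.17 ± 1.34 in E11 and 5.33 ± 1.57 in E16 AP-like cells.

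Notch3, a receptor also known from the mural cells of vessels, was found mostly in AP-like cells. It exceeded 20 copies in 18 of 23 E11 AP-like cells (78.3%, 56.3 to 92.5%) and 11 of 17 E16 AP-like cells (64.7%, 38.3 to 85.8%). The 2 E11 IP-like cells had 4.98 and 8.74, and among the 8 E16 IP-like cells the lowest, median and highest were 2.02, 4.37 and 10.36, with 1 cell over 20 copies. None of the 7 neuron-like cells exceeded it. The IP-like minus AP-like difference in means was -3.69 at E11, which was called, and -4.87 at E16 (4.71 ± 2.59 against 9.58 ± 2.39), which was not, as the E16 AP-like mean lay just under 20 copies. Within the 4 numbers in the cell names that hold both E16 classes, Notch3 was called, at -5.33. There the cells of each number were averaged first and the numbers weighted alike, giving 5.45 for 6 IP-like and 10.78 for 13 AP-like cells. Of the AP-like cells 10 share 1 number and the other numbers hold 1 each, so single cells weigh heavily in 10.78. The second probe set, 1421964_at, was dimmer (6.48 ± 3.34 in E11 AP-like cells) and correlated with the first at r = 0.72 over the 57 E11 and E16 cells. The 2 Notch1 probe sets correlated at r = 0.22 and the 2 Notch2 probe sets at r = -0.12, over cells that share arrays and normalization.

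Receptors were counted together in each cell, over all probe sets of a gene. Among E11 AP-like cells, 2 had none of the 3 receptors over 20 copies, 9 had 1, 9 had 2 and 3 had all 3. Among E16 AP-like cells the counts were 0, 3, 8 and 6 cells. In the E11 and E16 cells together, 19 cells held Notch1 and Notch3, which is 55.9% of the 34 Notch1 cells and 63.3% of the 30 Notch3 cells. Of the 7 neuron-like cells, 6 had no receptor over 20 copies. All 4 NICD/p18 APs had all 3 receptors over 20 copies, counting the Notch1 probe set that is far higher in those cells, described further on. The 20-copy spike itself had a median of 11.62 in those arrays, above the shared cut of 9.72.

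**Figure D2:**
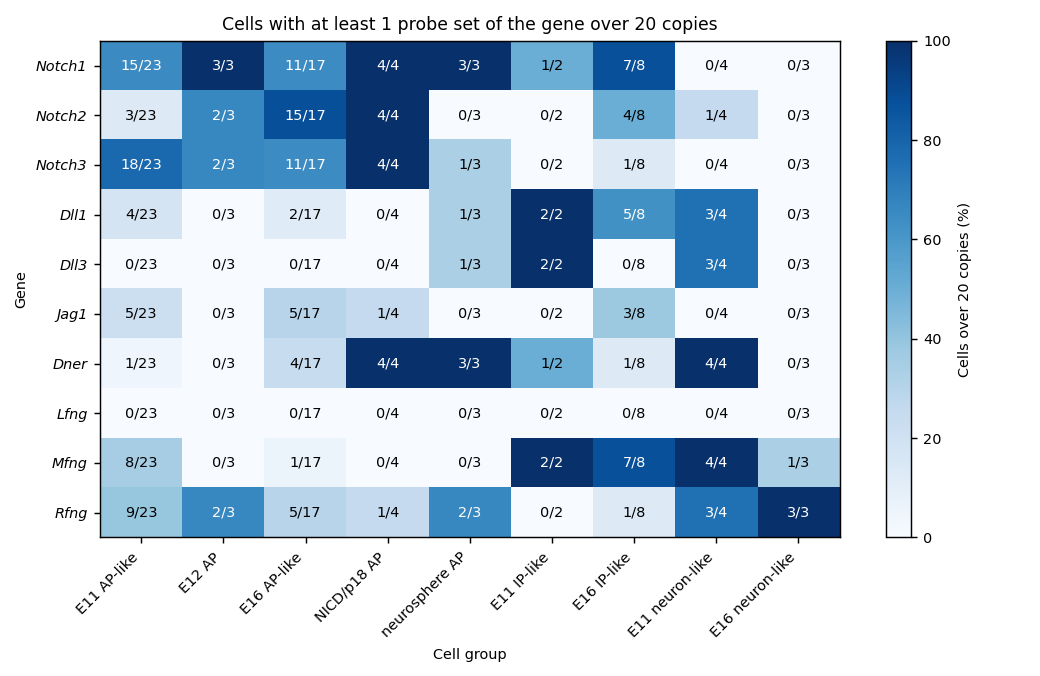
Number of cells with at least 1 probe set of the gene over 20 copies, of all cells of each group, with colour giving the percentage. Notch3 is counted in 18 of 23 E11 AP-like cells and in 1 of 8 E16 IP-like cells, Mfng in 8 of 23 and 7 of 8, Dll3 in 2 of 2 E11 IP-like, 3 of 4 E11 neuron-like and 1 of 3 neurosphere cells, and Lfng is 0 throughout.

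Dll1 and Dll3 were found mostly outside the AP-like class. Dll1 exceeded 20 copies in 2 of 2 E11 IP-like cells, 3 of 4 E11 neuron-like cells and 5 of 8 E16 IP-like cells. It did so in 4 of 23 E11 AP-like cells (17.4%, 4.95 to 38.8%), 2 of 17 E16 AP-like cells (11.8%, 1.46 to 36.4%) and no E16 neuron-like cell. The 2 E11 IP-like cells had 12.62 and 13.14, and the 23 E11 AP-like cells ran from 3.49 through 5.44 to 13.15, so a single AP-like cell reached the IP-like level. At E16 the IP-like cells ran from 4.94 through a median of 9.87 to 12.22 and the AP-like cells from 3.44 through 4.84 to 11.01. The IP-like mean was 6.18 higher at E11 and 3.93 higher at E16, and the E16 difference was not called because the IP-like mean (9.44 ± 2.65) lay under 20 copies.

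Dll3 resembled Dll1 at E11 in its class means, though not cell by cell, and at E16 it reached 20 copies in no cell. Its 2 E11 IP-like cells had 10.92 and 11.78 and its 4 E11 neuron-like cells 9.26, 9.83, 12.26 and 12.40, against a highest value of 5.03 in 23 E11 AP-like cells. The IP-like and AP-like ranges did not overlap at E11, and the difference in means was 7.69. Of the 8 E16 IP-like cells none exceeded 20 copies, which allows a share of up to 36.9%, and they ran from 2.49 to 8.93 against -0.79 to 5.15 in 17 E16 AP-like cells. Over the 57 E11 and E16 cells Dll3 exceeded 20 copies in 5, of which 4 also had Dll1, while 4 of the 16 Dll1 cells had Dll3. Whether the difference between E11 and E16 IP-like cells exceeds the spread between embryos cannot be told from these cells.

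Jag1 and Dner were found in scattered cells. The Jag1 probe set 1434070_at was spread widely, with a median of 3.17 and a highest value of 11.40 in E11 AP-like cells, 5 of 23 over 20 copies, and 4 of 17 in E16 AP-like cells. Among the 8 E16 IP-like cells 3 had it at 10.71 to 11.93 and the other five at 0.29 to 3.23. Of the other Jag1 probe sets, 1421106_at exceeded 20 copies in 1 E16 AP-like cell and 1421105_at in none. The 3 Jag1 probe sets did not rise together (r from -0.15 to 0.12 over 57 cells). Dner by 1423671_at exceeded 20 copies in 1 of 23 E11 AP-like cells (4.35%, 0.110 to 21.9%), 3 of 17 E16 AP-like cells (17.6%, 3.80 to 43.4%) and 3 of 4 E11 neuron-like cells. In E16 AP-like cells it ran from -0.29 through 3.11 to 12.47. The 4 E11 neuron-like cells had 8.92, 10.07, 11.72 and 11.78, the 2 E11 IP-like cells 1.57 and 11.86, and the 3 E16 neuron-like cells 3.34, 3.51 and 3.61. The 2 Dner probe sets correlated at r = 0.88 over the 57 cells.

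The E11 neuron-like class is not uniform. Reln, the secreted protein made by Cajal-Retzius cells, stood at 13.32 and 13.17 in 2 of its 4 cells and at 3.27 and 4.23 in the other two, and the cell with the higher Reln also had Lhx5 and Calb2 over 20 copies. Trp73, the remaining marker on that list, was at 2.40 to 4.43 in all 4 cells. That cell was the only one of the 4 without Dll1 over 20 copies, at 5.37, and it had Dner at 11.78. Cajal-Retzius markers reached 20 copies in no cell of another class. Another of the 4 cells, with Notch2 at 11.19, had the proliferation gene Mki67 at 12.89, while the other three had -0.44 to 3.75. The part of these cells in the class means was not tested.

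Of the Fringe genes, Mfng was found mostly in cell groups with Dll1. It exceeded 20 copies in 2 of 2 E11 IP-like, 4 of 4 E11 neuron-like and 7 of 8 E16 IP-like cells (87.5%, 47.3 to 99.7%). It did so in 8 of 23 E11 AP-like cells (34.8%, 16.4 to 57.3%) and 1 of 17 E16 AP-like cells (5.88%, 0.149 to 28.7%). The 2 E11 IP-like cells had 12.25 and 12.31, above the highest E11 AP-like cell at 11.70. The E16 IP-like cells ran from 9.14 to 12.10, and 1 E16 AP-like cell at 10.17 fell inside that range. The mean was 5.21 higher in IP-like cells at E11 and 7.48 higher at E16, and both differences were called. The E16 one was not called with classes from the most variable probe sets, which put the neuron-like cells with the IP-like cells. Those classes also moved cells between AP-like and IP-like. Their 11 E16 IP-like cells held 7 of the 8 used here, and their AP-like cells 16 of the 17. In E11 AP-like cells Mfng ran from 1.90 through 7.83 to 11.70, and in E16 AP-like cells from 2.12 through 3.51 to 10.17, a difference in means of -3.24 (3.82 ± 1.89 against 7.07 ± 3.50) with both means under 20 copies. Rfng was at 7.30 ± 3.64 in E11 and 8.43 ± 1.98 in E16 AP-like cells, and exceeded 20 copies in 3 of 3 E16 neuron-like cells (9.77, 11.32 and 11.49) and in neither E11 IP-like cell (2.65 and 3.24). No cell had either Lfng probe set over 20 copies, and the brighter one ranged from 0.55 to 7.32 in E11 AP-like cells.

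**Figure D3:**
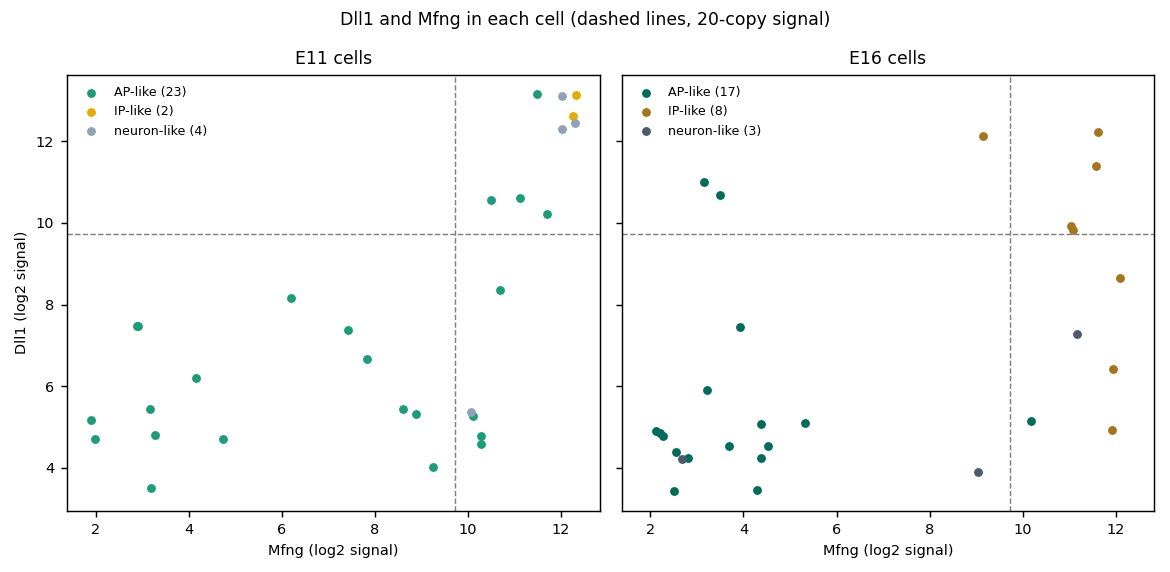
Dll1 against Mfng log2 signal in each E11 cell (left) and E16 cell (right), coloured by class, with dashed lines at the 20-copy signal of 9.72. Of the 16 cells with Dll1 over 20 copies, 13 also lie past the Mfng line, among them all 4 Dll1-positive AP-like cells of E11, and neither of the 2 Dll1-positive AP-like cells of E16 does.

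Dll1 and Mfng were over 20 copies in the same cell 13 times in the 57 E11 and E16 cells, 81.2% of the 16 Dll1 cells and 56.5% of the 23 Mfng cells. This held in 4 of 4 Dll1 cells among E11 AP-like cells and in 0 of 2 among E16 AP-like cells. All 5 Dll3 cells also had Mfng, and all were E11 IP-like or neuron-like, classes in which 2 of 2 and 4 of 4 cells had Mfng. In E16 IP-like cells 7 of 8 had Mfng, so counts pooled over the classes follow class as well. For comparison, 4 of the 13 Jag1 cells (30.8%), 5 of the 11 Dner cells (45.5%) and 7 of the 21 Rfng cells (33.3%) had Mfng, which 23 of all 57 cells had. A receptor and a ligand were over 20 copies together in 9 of 23 E11 AP-like, 6 of 17 E16 AP-like and 4 of 8 E16 IP-like cells. In 12 E11 and 11 E16 AP-like cells a receptor stood without a ligand, and in no AP-like cell did a ligand stand without a receptor. Among the 4 E11 neuron-like cells, 3 had a ligand and no receptor. Notch1 remained beside the ligand in IP-like cells of E16, where 4 of the 5 Dll1 cells had Notch1 over 20 copies.

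At E11, 3 of the 10 members were called higher in IP-like than in AP-like cells and 1 lower, against 4.44% and 2.86% of 20721 probe sets (7.3% either way). The 2 IP-like cells differed widely in Notch1 (4.74 and 12.38) and in Dner, so their means describe neither cell, and the brighter Notch1 cell was also the one with Dner at 11.86. At E16, Mfng was called higher and Notch2 lower (6.98 ± 4.39 in IP-like against 10.75 ± 0.96 in AP-like cells), against 1.05% and 0.917% of probe sets (1.97% either way). The E16 IP-like cells fell into 5 with Notch2 at 8.15 to 11.20 and 3 at 1.06 to 3.38. The median difference over the 10 members was 1.15 at E11 and -1.12 at E16, beside -0.22 and -0.02 over all probe sets. Member medians, here and below, include Jag1 and Lfng, whose brightest probe sets reached 20 copies in no cell. They also include other genes with both means under 20 copies, such as Dner at E16 (2.75 in IP-like and 4.84 in AP-like cells). Both E11 IP-like cells had Mki67 over 20 copies, and 7 of the 8 E16 ones did. Some neuron markers moved with the E11 differences, as both E11 IP-like cells had Elavl4 (mean 10.34 against 3.89 in AP-like cells), Nsg2 (11.54 against 3.67), Tubb3, Map2 and Dpysl3 over 20 copies. Tubb3 and Map2 were also over 20 copies in 12 and 13 of the 23 AP-like cells. Of the 18 neuron markers 10 reached 20 copies in neither IP-like cell, among them Rtn1 (1.55 against 3.37) and Bcl11b (3.86 against 6.01) with lower means. The 20-copy spike also differed, with a median of 10.66 in the E11 IP-like and 9.45 in the E11 AP-like arrays. The part of the neuron markers and of the spike in the differences was not tested.

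**Figure D4:**
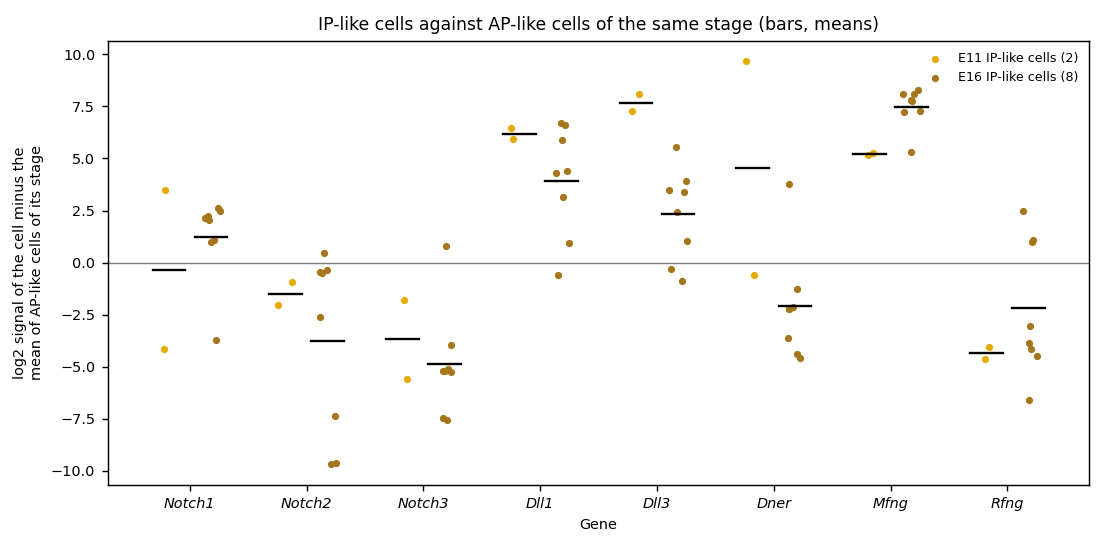
Difference in log2 signal between each IP-like cell and the mean of the AP-like cells of its stage, for 8 member genes. Points are cells, bars are means and the line at 0 is the AP-like mean. All points of Mfng lie above 0 at both stages, Notch3 lies below 0 in both E11 cells and in 7 of 8 E16 cells, and the E11 points of Notch1 and Dner lie on both sides of 0.

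Over all cells as labelled, without classes, Notch1 was the only member called between E16 and E11, higher by 2.09 at E16 (10.27 ± 2.45 in 28 cells against 8.18 ± 3.21 in 29), where 0.458% of probe sets were called higher, 0.512% lower and 0.97% either way. The difference stood close to the limit of 2 and the E16 mean close to 20 copies, and with the low-quality E11 cell included the call was lost. Notch2 differed by 4.43 but its E16 mean of 8.91 ± 3.45 lay under 20 copies. AP-like cells made up 23 of the 29 E11 and 17 of the 28 E16 cells, so these means mix classes in different shares.

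In the NICD/p18 APs the introduced genes were read first. The Notch1 probe set 1418633_at stood at 12.75, 13.60, 13.70 and 13.70 in the 4 cells, against 4.43, 6.88 and 7.92 in E12 APs and 5.59, 5.59 and 7.43 in neurosphere APs, with no overlap and a difference in means of 7.03 from E12 APs. The other Notch1 probe set, 1418634_at, was at 9.20, 9.30, 10.30 and 10.64 in the same cells, inside the range of AP-like cells and with a difference of -0.74 from the E12 mean (9.86 ± 0.72 against 10.60 ± 0.94). Which stretch of the Notch1 transcript each probe set reads is not given in the sources used here, and whether either reads the construct was not tested. Cdkn2c was not raised on its probe set, at 5.84, 6.29, 8.69 and 8.87 against 4.36, 8.06 and 9.69 in E12 APs. Whether that probe set reads the p18 construct was not tested either, so these values do not give the level of introduced p18. Mki67 was at -0.09 to 4.23 in the 4 cells and at 10.85 to 12.95 in E12 APs. The E12 APs had been chosen with Ki67 present, and the study reports Ki67 absent by qPCR in NICD/p18 APs. The 20-copy spike had a median of 11.62 in the NICD/p18 arrays and 9.86 in the E12 arrays, and the part of this and of the neuron markers in the differences below was not tested.

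**Figure D5:**
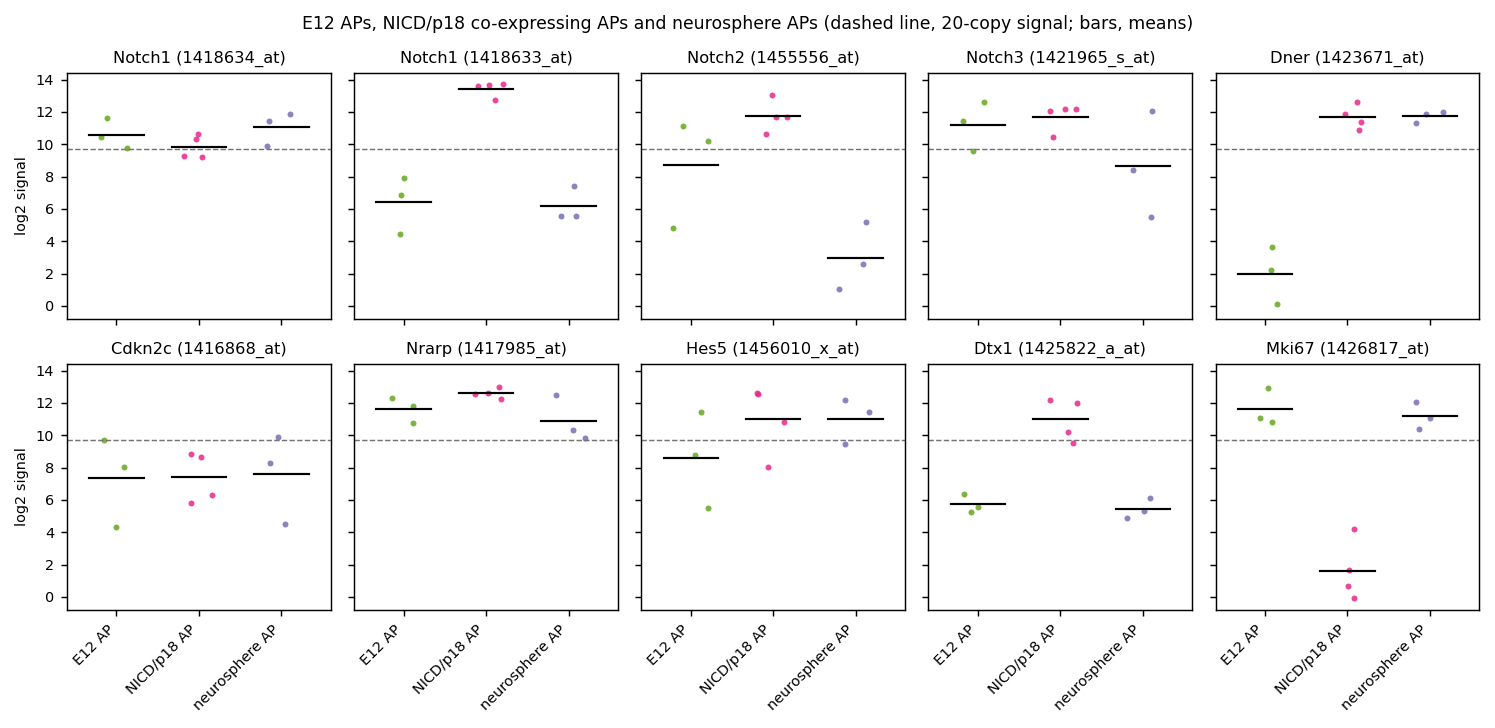
Log2 signal of 5 member probe sets and 5 other genes (probe set in brackets) in the 3 E12 APs, 4 NICD/p18 APs and 3 neurosphere APs. Points are cells, bars are means and the dashed line is the 20-copy signal. The NICD/p18 cells stand apart for Notch1 1418633_at, Dtx1 and Mki67, and for Dner they stand with the neurosphere cells near 11.7.

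Dner and Notch2 were the representative probe sets called higher in NICD/p18 than in E12 APs, and no member was called lower, against 2.57% and 5.83% of probe sets (8.4% either way). The median difference was 0.35 over the 10 members and -0.06 over all probe sets. Over all 18 probe sets 5 were called, adding 1418633_at of Notch1, 1421964_at of Notch3 and the second of Dner. Dner stood at 10.90, 11.39, 11.88 and 12.59 in NICD/p18 APs and at 0.11, 2.22 and 3.65 in E12 APs, a difference of 9.70 without overlap. In E11 AP-like cells it was 2.17 ± 2.40 and in E16 AP-like cells 4.84 ± 3.92. Notch2 stood at 10.64, 11.68, 11.71 and 13.02, within or above the E16 AP-like range, and 3.04 above the E12 mean (8.73 ± 3.41), which is under the SD of the E12 cells. Without the E12 cell at 4.82, which is the one with Eomes, the Notch2 difference was 1.09 and was no longer called, and the Dner difference was 8.76. No NICD/p18 cell exceeded 20 copies of Dll1 (4.11 to 6.87), Dll3 (0.79 to 3.79) or Mfng (4.44 to 9.10), as was true of the E12 APs.

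Neurosphere APs shared the high Dner, at 11.32, 11.88 and 11.97, which was 9.73 above the E12 mean without overlap. Dner was the only member called higher, against 2.48% of probe sets, and Notch3 the only one called lower (8.65 ± 3.28 against 11.20 ± 1.51), against 3.16% (5.63% either way). The median difference was 0.36 over the 10 members and -0.02 over all probe sets. The 3 neurosphere cells had Notch3 at 5.49, 8.42 and 12.04, so the lower mean came from 2 cells. Without the E12 cell with Eomes the differences were 8.79 for Dner and -3.36 for Notch3, and Notch2 was called lower as well. With arrays scaled to the lys spike in place of quantile normalization, Notch3 was no longer called and Dll1 was. Notch2 was at 1.07, 2.60 and 5.18, below 20 copies in all 3. Dll1 was at 6.53, 9.36 and 10.32, above all 3 E12 APs (4.41 to 5.34), and 1 neurosphere cell had Dll1 and Dll3 (11.49) over 20 copies together. Notch1 exceeded 20 copies in 3 of 3 cells (9.90, 11.46 and 11.88). NICD/p18 and neurosphere APs are set against the same 3 E12 cells, so their differences share those cells.

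Other genes of the pathway were read from a list of 42, of which 39 have a probe set and 33 reached 20 copies in a cell. Between E16 and E11 AP-like cells 0 of 33 were called, beside 2.04% of all probe sets. Over all cells only Hey1, a Notch target repressor, was called, beside 0.97% of all probe sets, with a difference of -2.45 (8.05 ± 3.53 at E16 against 10.50 ± 2.61). In E11 IP-like against AP-like cells 4.44% of all probe sets were called higher and 2.86% lower (7.3% either way). Of the 33 list genes 5 were called higher and 2 lower. They were Hes6, a Hes relative that promotes neurogenesis (12.82 in both cells against 7.77 ± 2.20), the Numb relative Numbl (10.02 ± 1.13 against 5.66 ± 1.77), the ubiquitin ligase Itch (10.09 ± 1.42 against 7.68 ± 2.20), the receptor protease Adam17 (10.54 ± 1.83 against 5.04 ± 4.04) and the fucosyltransferase Pofut1 (11.17 ± 1.65 against 8.08 ± 3.60). Lower were Hey1 (6.16 ± 6.01 against 10.87 ± 1.99) and the gamma-secretase subunit Psenen (5.12 ± 4.61 against 10.07 ± 2.76). At E16 only Hes6 was called, beside 1.97% of all probe sets, at 11.33 ± 0.69 in IP-like and 4.95 ± 2.05 in AP-like cells. Its 8 of 8 IP-like cells and 1 of 17 AP-like cells over 20 copies resembled the counts of Mfng.

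In NICD/p18 against E12 APs, 2 of the 33 were called higher and 2 lower, beside 2.57% and 5.83% of all probe sets (8.4% either way). The Notch target Hes5 stood at 11.02 ± 2.14 against 8.58 ± 2.96, and Dtx1, a Notch-induced ubiquitin ligase, at 9.52, 10.23, 12.03 and 12.15 against 5.23, 5.59 and 6.39. Nrarp, another target, was over 20 copies in all 4 NICD/p18 and all 3 E12 cells (12.25 to 13.01 and 10.78 to 12.30). Rbpj, the DNA-binding partner of the receptor, was lower (5.95 ± 3.35 against 10.32 ± 0.37), as was the Rbpj co-regulator Snw1 (7.12 ± 3.11 against 10.77 ± 1.03). Hes1, also a target, was at 1.57 to 3.18 in the NICD/p18 APs, below all E12 (4.43, 4.89 and 10.23) and neurosphere APs (4.08 to 7.08), and was not called, as no group mean reached 20 copies. In neurosphere against E12 APs, Hes5 (11.03 ± 1.42) and Fbxw7, which marks the Notch intracellular domain for degradation (10.01 ± 2.07 against 7.90 ± 3.51), were called higher and none lower. Of all probe sets 2.48% were called higher there and 3.16% lower (5.63% either way). Without the E12 cell with Eomes, a setting chosen after seeing the data, Hes5, Dtx1, Rbpj and Snw1 were called as before in NICD/p18 APs, and Fbxw7 was called lower there (-3.60). In neurosphere APs Hes5 was called (2.57) and Fbxw7 was not (0.12). Notch4, Dll4 and Jag2 reached 20 copies in no cell of any group.

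Spread between cells was read where a group mean was over 20 copies. In E11 AP-like cells Notch3 had an SD of 1.50, beside a median of 1.12 over the 2386 probe sets with such a mean. In E16 AP-like cells Notch2 had 0.96 and Notch1 1.86, beside a median of 1.18 over 2120. In E16 IP-like cells Mfng had 0.96 and Notch1 2.09, beside 1.00 over 2213.

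Genes with the most similar pattern over the 57 E11 and E16 cells were sought by Pearson correlation of log2 signal, which also follows the class and stage of the cells and any difference between arrays. For Notch2 they were Aldoc, a glycolytic aldolase (r = 0.70), the transcriptional regulator Prdm16 (0.70) and the matrix protein Tnc (0.65). For Notch3 they were Ttyh1, which is also one of the AP markers (0.66), 2810004N23Rik (0.65) and Ajuba (0.65). For Dll1 the most similar gene was Mfng (0.59), followed by E2f1 (0.58) and Rnf31 (0.57). For Dll3 they were the basic helix-loop-helix factors Nhlh2 (0.76) and Neurod1 (0.66) and the neuronal RNA-binding protein Elavl4 (0.66), and for Mfng they were Eomes (0.61), Elavl4 (0.60) and Gadd45g (0.59). Neurod1, Elavl4, Eomes and Gadd45g were among the class markers. Notch1 (Scrn1, Arhgap21 and Dbi), Dner (Rab43, Ebf2 and Irf3) and Rfng (Ccdc90b, Fbxo28 and Strn4) had no gene above r = 0.57.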

How the data were processed

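Single cells were picked by glass capillary, and their cDNA was amplified by PCR with spike RNAs (among them phe at 20 and lys at 1000 copies per cell) and hybridized to Affymetrix mouse arrays, which read the 3′ part of transcripts. The authors deposited linear intensity values, and the submitters' processing notes name MAS5 with no version. They are not quantile normalized. The mean trimmed by 2% at each end was 500 in the 10 arrays of E12, neurosphere and NICD/p18 cells and 47.5 to 297.5 in the E11 and E16 arrays kept, so processing and group cannot be told apart between these kinds of array, and NICD/p18 and neurosphere APs were compared with E12 APs. In NICD/p18 arrays the 20-copy spike had a median log2 signal of 11.62, against 9.49 to 9.86 in the other labelled groups. Among the E11 classes it was 10.66 in IP-like and 10.31 in neuron-like arrays, against 9.45 in AP-like arrays. Among the E16 classes it ran from 9.29 to 9.78. No pair of arrays was identical (2278 pairs).

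All 68 arrays were quantile normalized together and log2 transformed. The 20-copy signal was the median of the spike probe set AFFX-r2-Bs-phe-3_at, and 20721 of 45101 probe sets reached it in at least 1 cell. Of all probe sets 34958 map to 1 gene symbol, 932 to several and 9211 are not in the gene table. An E11 cell of low quality in the study's methods was left out. Cells of each stage were clustered on AP, IP and neuron markers (1 minus Pearson correlation, complete linkage, 3 clusters). A gene is called where means differ by at least 2 on the log2 scale and the higher is over 20 copies, by its brightest probe set. Each cell group is 1 sample, so no test was made. Named are all members, list genes that were called, Notch4, Dll4 and Jag2, and for each member with a group mean over 20 copies the 3 genes most like it. Members and lists were chosen with earlier results of these data known. The number of arrays limits the precision. Calculations used Python 3.11.15, numpy 2.4.6, pandas 2.3.3, scipy 1.17.1 and matplotlib 3.10.9, and were tested on simulated data. Alternatives changed the normalization, offset (32), thresholds, probe set rule, classes and cells.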

Additional observations from a re-analysis of the deposited data

Results flagged for a closer look

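Within groups of 4 to 10 cells, the highest or lowest cell was compared with the rest by its gap over the range of the group, for 24 sets of values, and 9 stood apart. The limits used flag about 1 in 20 sets of independent, normally distributed values. These sets share cells and many of the signals are spread widely, so that rate does not hold here. The count of 9 was not tested against chance. In NICD/p18 APs the lowest Notch3 cell was at 10.48, with the others at 12.04 to 12.17. Among the 4 E11 neuron-like cells, 1 had Notch2 at 11.19 (others at most 2.71), another had Dll1 at 5.37 (others at least 12.30) and Mfng at 10.07 (others at least 12.02), and a further cell had Rfng at 1.74 (others at least 9.97). Among the 8 E16 IP-like cells, 1 had Notch1 at 6.65 (others at least 11.33), 1 had Notch3 at 10.36 (others at most 5.63), and 1 had Dner at 8.62 (others at most 3.56) with Mfng at 9.14 (others at least 11.04).

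Notch2 moved in opposite directions in NICD/p18 and neurosphere APs against the same E12 APs. All 4 NICD/p18 cells lay above the E12 mean (by 1.92 to 4.30) and all 3 neurosphere cells below it (by -7.65 to -3.54), a difference between the mean effects of 8.81. The difference was not tested, and the E12 cells themselves ran from 4.82 to 11.15.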

How the results depend on the processing

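Of 12 called differences of single genes, recomputed 108 times under the alternatives, 0 changed direction and 5 moved by more than the SD between cells. Adding 32 before the log accounts for 4 of these and shortens differences of dim groups by its construction. Member calls between E16 and E11 cells, 1 in all, fell to 0 with signals as deposited, with lys scaling, with log2(signal + 32), at 2 times the 20-copy signal and with the low-quality cell included, and rose to 2 at 0.5 times that signal. In AP-like cells the count rose from 1 to 2 with a difference of at least 1. For E16 IP-like against AP-like cells the 2 calls became 4 at 0.5 times the 20-copy signal and 1 with classes from the 1000 most variable probe sets. That setting put 11 cells in the IP-like and 0 in the neuron-like class and lost the Mfng call (a difference of 5.35, against 7.48). Of those 11 cells 7 were IP-like in the main classes, and of its 17 AP-like cells 16 were AP-like there. For NICD/p18 against E12 APs the 2 calls became 4 with any probe set of a gene. For neurosphere against E12 APs the 2 calls became 4 with signals as deposited, at 0.5 times the 20-copy signal and with the 10 arrays normalized apart, an alternative chosen after seeing the data. Over all probe sets the calls rose from 1740 to 3255 as deposited and 3189 normalized apart for NICD/p18 APs, and from 1167 to 2394 and 2389 for neurosphere APs. The cause was not tested. Leaving out single cells gave 3 to 6 calls for E11 IP-like, 1 to 3 for NICD/p18 and 1 to 3 for neurosphere cells. Notch3 was not called in neurospheres without the E12 cell with Notch3 at 12.59 or without the neurosphere cell with it at 5.49, and Notch2 was not called in NICD/p18 APs without the E12 cell at 4.82. For the E11 IP-like cells, Notch3 was not called without the cell with Notch1 at 12.38, or at 2 times the 20-copy signal. The E16 AP-like and IP-like classes held more than 5 cells, so none was left out there. The number of members with a mean over 20 copies in a group was 8 under all alternatives run for it. Scaling moved the median difference of all probe sets, from -0.07 to -0.41 as deposited and -0.60 with lys scaling for E16 against E11 AP-like cells, from -0.22 to -0.96 and -1.16 for E11 IP-like cells, and from -0.06 to -0.09 and -0.77 for NICD/p18 APs, and from -0.02 to 0.09 and 0.51 for neurosphere APs. Within the numbers of the cell names that hold both classes, whose meaning the labels do not give, the E11 calls rose from 4 to 5 with Notch1 at -2.12 (2 numbers) and the E16 calls from 2 to 3 with Notch3 at -5.33 (4 numbers), and over all probe sets the E16 calls rose from 408 to 649. No paired analysis was possible because the labels give no replicate number that ties cells together, and those in use follow accession order.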

Other observations

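The E11 cell left out for its quality had Notch1 at 11.88, Notch3 at 12.39 and Rfng at 9.86, all over 20 copies, and Dll1 at 9.15, Dner at 8.76, Dll3 at 4.52, Mfng at 2.58 and Notch2 at 1.82, all under it. With it included, clustering placed it with the AP-like cells, 24 in all.

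Spen, a corepressor partner of Rbpj, had a mean of 9.02 ± 1.11 in NICD/p18 APs and 9.34 ± 2.59 in neurosphere APs, with 1 of 4 and 2 of 3 cells over 20 copies, against 5.40 ± 1.77 in E12 APs, 3.19 ± 1.65 in E11 and 4.23 ± 2.55 in E16 AP-like cells. It was chosen after its values were seen, and both groups are set against the same E12 cells.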
